A study of Mus musculus with 24 samples.

Results

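Transcript differences between the light phase and the dark phase of the day were measured in the heart muscle of male mice that carry the Clock delta 19 mutation on both alleles. The comparison is the mean of 12 light-phase hearts minus the mean of 12 dark-phase hearts, and it uses 24 of the 24 arrays of the series. The light phase was sampled at ZT03, ZT07 and ZT11 and the dark phase at ZT15, ZT19 and ZT23, with 4 mice at each time, where ZT is zeitgeber time, the number of hours after lights on. All mice were 8 weeks old and lived under 12 h of light and 12 h of darkness, and the tissue is labelled myocardium. The light-phase and dark-phase mice share this genotype, and wild-type hearts were not analysed here. The labels call the replicates biological. Each array gave 1 value per gene for 22180 genes, on a log scale taken as log2 and centred by the authors on the median of each array feature.

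The circadian clock of a heart cell is a feedback loop in which CLOCK and its partner BMAL1 (gene Arntl) switch on the Per and Cry genes, whose proteins then block them. The delta 19 form of Clock lacks an exon and makes a protein that still pairs with BMAL1 but does not activate transcription. Mice with an intact clock are nocturnal. Their light phase is a time of rest and little feeding, with a lower body temperature and heart rate, and their dark phase a time of activity and feeding. For the mutant mice used here, activity, feeding, body temperature and heart rate are not given in the labels. The comparison asks which cardiac transcripts differ between the light and the dark phase when the clock itself is impaired.

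The arrays of both phases had overlapping ranges of SD. Over all deposited features, the SD of an array was between 0.097 and 0.153 in light hearts and between 0.095 and 0.134 in dark hearts. The median of all gene differences was -0.0022. The widest array was ZT11 replicate 1 (SD 0.153), and counts are given without it where it moved them. Because values are centred, levels of different genes cannot be compared, and whether a tissue's defining markers are high or absent cannot be read. Clock itself lay between -0.30 and 0.17 (median 0.00) in light hearts and between -0.60 and 0.13 (median 0.00) in dark hearts, a difference of 0.00 ± 0.05 (SE). The place of its array feature on the transcript is not given in the sources used here, and this value is no check of the deleted exon.

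Between the phases, 84 genes differed at an adjusted p under 0.05 by limma with Benjamini-Hochberg adjustment over all genes, which is 0.379% of those tested. Of these, 54 were higher in the light phase (0.243%) and 30 were lower (0.135%). Differences were small: the largest were 0.48 (1.40-fold) for Scin and -0.49 (1.40-fold) for Bst2, and 49 of the 84 reached 0.2 on the log2 scale. At an unadjusted p under 0.05, 2336 genes (10.5%) differed, 1398 higher (6.3%) and 938 lower (4.23%). In 0 genes (0%) did all 12 light hearts lie beyond all 12 dark hearts, although in 49 of the 84 all 12 light hearts lay on the same side of the dark median. At the threshold, Scd4 (0.33) and Lrrn4cl (0.22) passed with an adjusted p of 0.048, while Eif6 (-0.17) and Smco1 (0.20) did not pass (adjusted p 0.051).

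The test sets 12 hearts against 12 with time points fitted as separate means, so its p-values measure the spread between hearts of the same time point. Each phase was sampled at 3 times. When the 6 time-point means were used as the units, 3 against 3, 0 genes passed with limma (1521 at an unadjusted p under 0.05, smallest adjusted p 0.37). The count also moved with single hearts: leaving out ZT03 replicate 3 gave 51, leaving out ZT07 replicate 3 gave 53, and leaving out ZT11 replicate 1 gave 183. Without both ZT11 replicate 1 and ZT19 replicate 2, the dark heart with the lowest Clock value, it was 131 (98 higher and 33 lower), and 73 of the 84 genes remained among them.

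Among the 15 named genes with the largest higher differences, the 6 of smallest p were Scin, Srsf5, Agtr1a, Lbr, Magi3 and Clpx. Genes outside these had p-values as small or smaller, among them the gene model Gm12295 (0.46 ± 0.06, adjusted p 0.0085) and Cmah. Scin, which codes for the actin-severing protein scinderin, had values of -0.19 (lowest), 0.39 (median) and 0.52 (highest) in light hearts, against -0.54, -0.25 and 0.09 in dark hearts. The ranges overlapped, but 9 light hearts lay above every dark heart, and the difference was 0.48 ± 0.07 (SE; adjusted p 0.0085). Its ZT03 hearts, at 0.39 to 0.51, sat apart from its ZT15 hearts, at -0.41 to -0.32, while the ZT11 hearts were spread from -0.19 to 0.41. Scin was the only passing gene among 15 measured genes of a list of actin severing and capping (1 higher, 0 lower, median 0.02), which does not hold the capping gene Tmod3, lower in light.

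Srsf5 codes for a serine- and arginine-rich splicing factor. Its light hearts lay between -0.09 and 0.40 (median 0.15), against -0.50 to 0.11 (median -0.18) for dark hearts, and 8 light hearts exceeded all dark hearts. The difference was 0.34 ± 0.05 (adjusted p 0.0085). Its means were 0.20, 0.25 and 0.05 at ZT03, ZT07 and ZT11 and -0.29, -0.21 and -0.03 at ZT15, ZT19 and ZT23, so the light and dark values were closest at ZT11 and ZT23. Of 18 measured genes of SR splicing factors and their kinases, Srsf5 alone passed, and the list median was 0.00.

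Agtr1a codes for the main angiotensin II receptor of the mouse, through which the hormone raises vessel tone and drives cardiac growth. It had -0.11, 0.20 and 0.26 (lowest, median, highest) in light hearts and -0.46, -0.19 and 0.05 in dark hearts. Although the ranges overlapped, 8 light hearts exceeded every dark heart (difference 0.32 ± 0.06, adjusted p 0.016). In the list of angiotensin and natriuretic peptide genes, 1 of 17 measured members was higher and 0 lower, with a median of 0.01. The natriuretic peptide gene Nppa did not pass, at 0.14 ± 0.16 (adjusted p 0.81). Nor did Nppb, at -0.38 the lowest of the list, in which 10 members lay above 0 and 7 below.

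Lbr, which codes for the lamin B receptor of the inner nuclear membrane, had light values of -0.03 to 0.40 (median 0.07) against dark values of -0.43 to 0.03 (median -0.14), a difference of 0.28 ± 0.05 (adjusted p 0.016). Magi3, which codes for a scaffold protein of cell junctions, had -0.18 to 0.38 (median 0.17) in light hearts and -0.33 to 0.04 (median -0.15) in dark hearts, a difference of 0.28 ± 0.05 (adjusted p 0.017). Clpx, which codes for the unfolding subunit of a mitochondrial protease, had -0.05 to 0.28 (median 0.12) in light hearts and -0.41 to 0.03 (median -0.15) in dark hearts, a difference of 0.25 ± 0.05 (adjusted p 0.022). In each of the 3 genes the ranges overlapped, and 9, 10 and 9 light hearts lay above every dark heart for Lbr, Magi3 and Clpx.

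In the lower direction, Bst2 had the largest difference. It codes for tetherin, an interferon-inducible membrane protein that holds back budding viruses. Its light hearts lay between -0.68 and 0.07 (median -0.24) and its dark hearts between -0.10 and 0.47 (median 0.29), with 9 light hearts below all dark hearts (difference -0.49 ± 0.08, adjusted p 0.0091). The difference was -0.66 for ZT03 minus ZT15, -0.49 for ZT07 minus ZT19 and -0.30 for ZT11 minus ZT23. Of 20 measured interferon-response genes Bst2 alone passed (0 higher, 1 lower, median -0.02).

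Rtn4r codes for the Nogo receptor, known for limiting axon growth. It had -0.31, -0.11 and 0.11 (lowest, median, highest) in light hearts against -0.09, 0.19 and 0.35 in dark hearts, and the difference was -0.29 ± 0.05 (adjusted p 0.0091). Of its light hearts, 7 lay below every dark heart. The difference had the same sign in all 3 pairs of time points, at -0.42, -0.20 and -0.25.

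Luc7l3, Acin1 and Ccar1 were lower in the light phase. Luc7l3, a factor of the splicing machinery's U1 particle, had light values of -0.23 to 0.03 (median -0.08) against dark values of -0.10 to 0.34 (median 0.15), a difference of -0.24 ± 0.04 (adjusted p 0.0085). Acin1, a nuclear RNA-binding protein linked to apoptosis, had -0.27 to 0.09 (median -0.13) in light hearts and -0.08 to 0.23 (median 0.10) in dark hearts, a difference of -0.21 ± 0.04 (adjusted p 0.015). Ccar1, a transcriptional coactivator, had -0.42 to 0.08 (median -0.09) in light hearts and -0.05 to 0.24 (median 0.11) in dark hearts, a difference of -0.24 ± 0.04 (adjusted p 0.018). The ranges of each overlapped, and all 12 light hearts lay below the dark median in each. The long noncoding RNA Malat1, a component of nuclear speckles, was lower by a mean of -0.20, from -0.26 and -0.14 for its 2 features. Tent4a (-0.17), a poly(A) polymerase, and Gtf2f1 (-0.17), a subunit of general transcription factor TFIIF, were also lower.

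**Figure D1:**
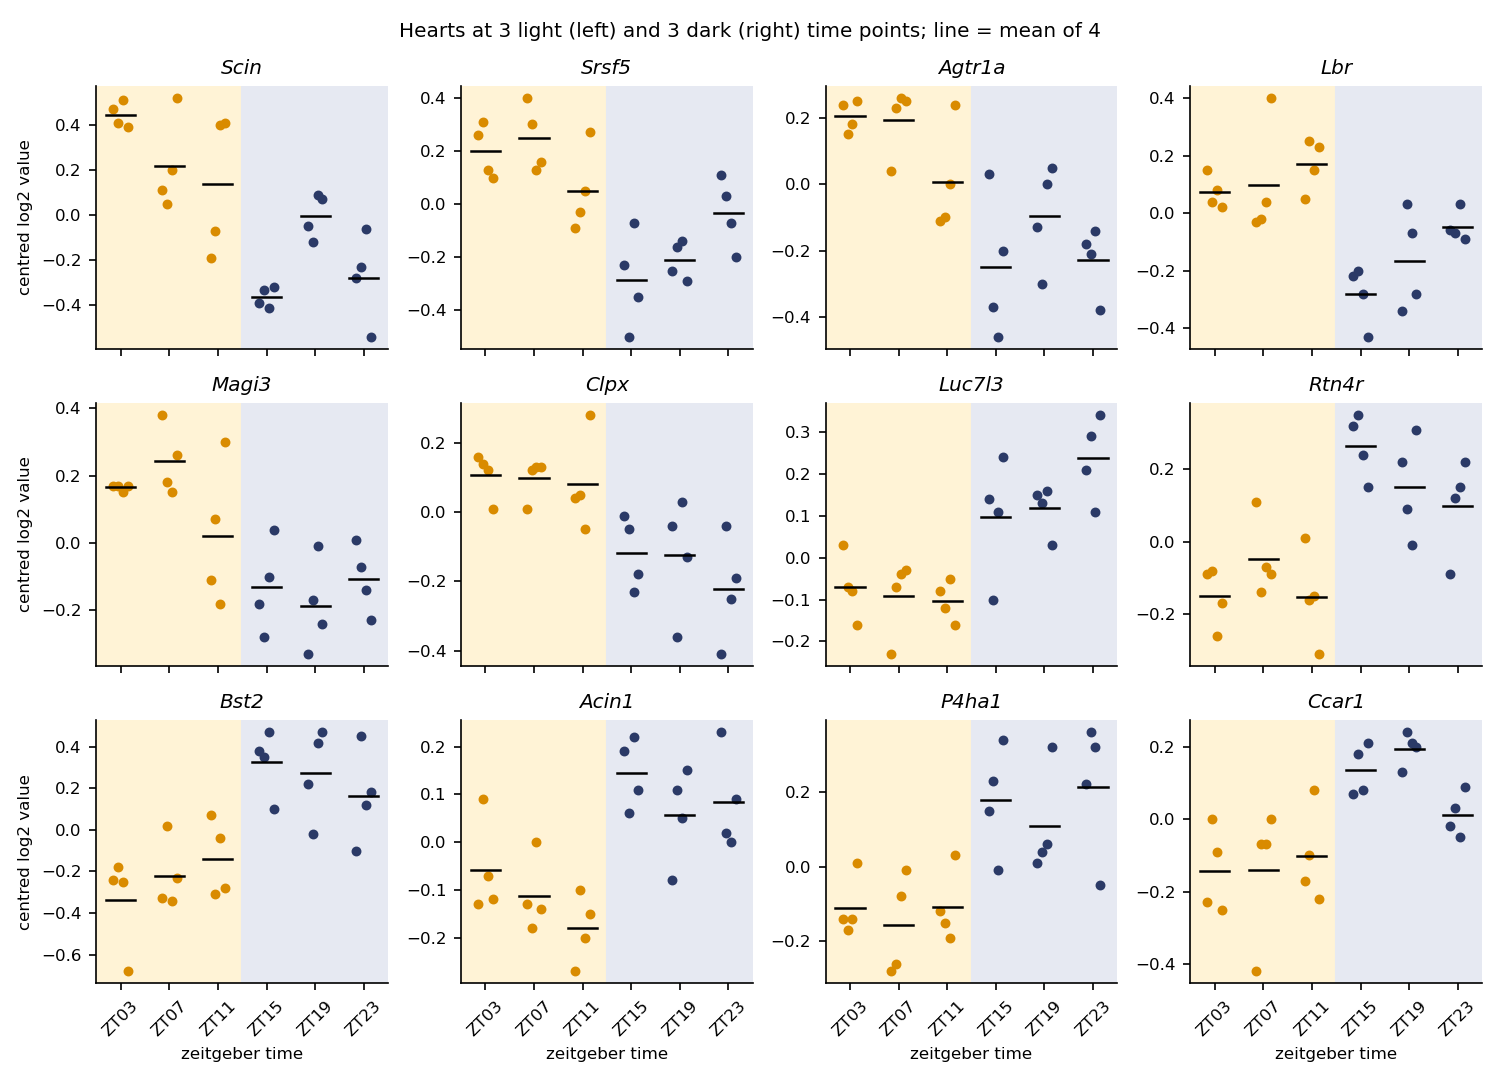
Centred log2 values of the 24 hearts for the 6 higher and the 6 lower genes with the smallest p among the largest differences, by zeitgeber time, with light time points on the left (yellow band) and dark time points on the right (blue band); each point is a heart and each line the mean of 4. For Scin the ZT03 hearts (0.39 to 0.51) and ZT15 hearts (-0.41 to -0.32) are far apart, and in every gene shown the 12 light and 12 dark values overlap.

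Several genes of heat shock proteins and cytosolic chaperones were lower in the light phase. Chaperones hold or refold unfolded proteins, and their genes are switched on by heat shock factor when proteins unfold. Of 30 measured members 5 were lower and 0 higher among genes passing the test, against 0.135% of all genes lower. The list median was -0.06, against -0.0022 over all genes, with 25 members below 0 and 5 above. The 5 were Hspa8, Cryab, Fkbp4, Hspb1 and Hspa4.

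Hspa8, the constitutive HSP70 of the cytosol, had -0.40, -0.23 and 0.30 (lowest, median, highest) in light hearts against -0.06, 0.11 and 0.50 in dark hearts. The difference was -0.32 ± 0.06 (adjusted p 0.018), and its 4 features gave -0.31, -0.13, -0.42 and -0.42. The light hearts above the dark median were ZT11 replicates 1 and 2, at 0.30 and 0.23, while all 8 hearts of ZT03 and ZT07 lay at -0.14 or below. The pairs of time points gave -0.64, -0.28 and -0.06.

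Cryab codes for alpha B-crystallin, a small heat shock protein of the Z-disc that is abundant in heart muscle. Its light hearts lay between -0.44 and 0.33 (median -0.27) and its dark hearts between -0.12 and 0.16 (median 0.03). At ZT03 the hearts were at -0.33, -0.44, -0.38 and -0.37, at ZT07 at -0.28, -0.25, -0.26 and -0.35, and at ZT11 at 0.33, 0.12, 0.12 and 0.02. Thus 8 light hearts were below every dark heart, and the mean at ZT11 (0.15) was above that of every dark time point. The overall difference, -0.19 ± 0.03 (adjusted p 0.015; -0.08 and -0.31 for its 2 features), is therefore an average of unlike values. The differences were -0.46, -0.28 and 0.16 in the 3 pairs of time points, and they differed from each other (limma F test, adjusted p 0.0099), as did the 3 light time points (adjusted p 0.00028).

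The other 3 were closer to level within each phase. Fkbp4, a co-chaperone of HSP90 and steroid receptors, had light values of -0.17 to 0.01 (median -0.10) against dark values of -0.04 to 0.21 (median 0.06), with 10 light hearts below all dark hearts. Its means were -0.09 at each light time point and 0.07, 0.07 and 0.11 at the dark ones (difference -0.18 ± 0.03, adjusted p 0.016). Hspb1, the small heat shock protein HSP27 (HSP25 in mice), had -0.20 to 0.13 (median -0.10) in light hearts and -0.06 to 0.21 (median 0.09) in dark hearts (difference -0.17 ± 0.03, adjusted p 0.018; features -0.12 and -0.21). Hspa4, a nucleotide exchange factor of HSP70, had -0.19 to 0.03 (median -0.06) in light hearts and -0.05 to 0.18 (median 0.08) in dark hearts (difference -0.12 ± 0.03, adjusted p 0.038). Hspa4 passed in 9 of the 24 fits that left out a heart, and the other 4 in all 24. Tested feature by feature with limma, neither feature of Cryab (adjusted p 0.58 and 0.057) nor of Hspb1 (0.39 and 0.2) passed. The features of Hspa8 had adjusted p of 0.097, 0.055, 0.021 and 0.022. The calls of Cryab and Hspb1 therefore rest on the average of their features. Hspd1 (-0.15, adjusted p 0.059), Hsp90aa1 (-0.16, 0.14) and Hspa1a (-0.33, 0.25) did not pass.

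The promoters of Hspb1 and Fkbp4 are shown because both genes were lower in the light and hold the inverted repeat to which heat shock factor is known to bind. They are RefSeq sequences of GRCm38.p6, 250 bases before to 50 after the start of the gene, at chr5:135887669-135887968 (plus strand) for Hspb1 and chr6:128438607-128438906 (minus strand) for Fkbp4, written 5′ to 3′ along the gene. Capitals mark GAANNTTC or TTCNNGAA, each of which is its own reverse complement.
Hspb1: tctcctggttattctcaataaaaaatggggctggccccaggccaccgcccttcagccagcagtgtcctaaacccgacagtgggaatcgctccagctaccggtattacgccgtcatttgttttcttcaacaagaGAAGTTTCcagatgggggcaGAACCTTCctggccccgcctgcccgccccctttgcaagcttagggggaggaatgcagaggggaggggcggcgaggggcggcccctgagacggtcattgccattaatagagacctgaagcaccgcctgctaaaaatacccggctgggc
Fkbp4: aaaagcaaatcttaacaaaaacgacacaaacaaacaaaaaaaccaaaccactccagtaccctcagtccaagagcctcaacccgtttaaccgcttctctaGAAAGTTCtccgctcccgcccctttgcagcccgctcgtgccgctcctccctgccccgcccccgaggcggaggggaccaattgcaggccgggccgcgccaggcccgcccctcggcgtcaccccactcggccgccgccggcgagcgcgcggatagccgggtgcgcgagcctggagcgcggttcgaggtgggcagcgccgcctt

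The matches begin 117 and 97 bases before the start of Hspb1 and 151 bases before that of Fkbp4. The Hspa4 promoter holds 0 matches, and Cryab and Hspa8 were not found in the promoter table. Promoters were matched for 63 of the 84 genes. A match was present in 6 of 29 promoters of genes lower in light (20.7%), in 3 of 43 of genes higher in light (6.98%) and in 15.1% of all 32851 promoters of this length. The E-box CACGTG, to which CLOCK and BMAL1 bind, was present in 4 of 29 (13.8%) promoters of lower genes, 7 of 43 (16.3%) of higher genes and 7.15% of all. The D-box TTATGNAA or its reverse complement, bound by NFIL3 and DBP, was in 0 of both sets (0%) and in 3.38% of all. A match is a run of letters and shows no binding. The set of all promoters was not limited to the genes tested here and was not matched for base composition. No enrichment was tested or is read from these shares.

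The collagen-processing genes P4ha1 and Serpinh1 and the hypoxia-inducible gene Vegfa were lower in the light phase, while 0 genes of collagen chains passed. P4ha1 codes for the catalytic subunit of collagen prolyl 4-hydroxylase, which the low-oxygen factor HIF1 is known to induce. It had light values of -0.28, -0.14 and 0.03 (lowest, median, highest) against dark values of -0.05, 0.18 and 0.36, and 9 light hearts were below all dark hearts (difference -0.29 ± 0.05, adjusted p 0.017). The 3 pairs gave like values, -0.29, -0.26 and -0.32. Serpinh1, the collagen chaperone HSP47, had -0.30 to 0.10 in light hearts and -0.06 to 0.40 in dark hearts (-0.26 ± 0.06, adjusted p 0.036), and passed in 9 of 24 fits that left out a heart. Among 21 measured genes of collagen chains and processing these 2 were lower and 0 higher, with a median of 0.01, and the chain genes Col1a1 (0.18 ± 0.07, adjusted p 0.35) and Col3a1 (0.18 ± 0.08, adjusted p 0.40) did not pass.

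Vegfa, the main angiogenic growth factor, had -0.34 to 0.07 (median -0.09) in light hearts and -0.09 to 0.43 (median 0.13) in dark hearts (-0.27 ± 0.05, adjusted p 0.018). With P4ha1 it made 2 lower and 0 higher of 23 measured hypoxia-inducible genes, whose median was -0.01. P4ha2 (-0.18, adjusted p 0.059) and Egln3 (-0.31, adjusted p 0.20) did not pass. Hif1a itself differed by 0.00 ± 0.02, an average of unlike pairs of time points. These gave 0.16, 0.03 and -0.18 (limma F test for unequal pairs, adjusted p 0.028).

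The promoters of P4ha1 and Serpinh1 are shown because both collagen-processing genes were lower in the light and hold the core to which HIF1 is known to bind. They lie at chr10:59323046-59323345 (plus strand) and chr7:99353190-99353489 (minus strand) of GRCm38.p6 (RefSeq), and capitals mark CACGT, the reverse complement of the core ACGTG.
P4ha1: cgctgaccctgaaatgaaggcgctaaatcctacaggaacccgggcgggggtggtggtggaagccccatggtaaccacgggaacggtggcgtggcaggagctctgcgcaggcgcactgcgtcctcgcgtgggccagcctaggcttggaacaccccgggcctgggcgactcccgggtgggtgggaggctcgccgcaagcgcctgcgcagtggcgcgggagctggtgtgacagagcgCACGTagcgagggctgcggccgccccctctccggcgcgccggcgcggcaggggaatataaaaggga
Serpinh1: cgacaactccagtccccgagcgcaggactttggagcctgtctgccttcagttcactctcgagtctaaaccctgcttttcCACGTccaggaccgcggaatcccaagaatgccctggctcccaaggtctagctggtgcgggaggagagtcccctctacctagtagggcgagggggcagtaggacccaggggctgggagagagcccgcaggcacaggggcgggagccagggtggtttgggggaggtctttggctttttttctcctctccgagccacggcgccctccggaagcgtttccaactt

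The core begins 16 bases before the start of P4ha1 and 171 bases before that of Serpinh1. On either strand, ACGTG was in 11 of 29 promoters of genes lower in light (37.9%), in 17 of 43 of genes higher in light (39.5%) and in 19.6% of all promoters. Every E-box CACGTG also holds this core. These shares have the same limit as those of the other elements.

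Abra and Ier3 were among the largest differences in the lower direction. Abra, which codes for a striated-muscle protein that promotes serum response factor activity, had -0.47 to 0.12 (median -0.22) in light hearts against -0.06 to 0.60 (median 0.30) in dark hearts (-0.43 ± 0.08, adjusted p 0.023). Ier3, an immediate early gene, had -0.45 to 0.09 (median -0.15) against -0.13 to 0.62 (median 0.23) (-0.37 ± 0.07, adjusted p 0.023), with its widest gap, -0.71, between ZT03 and ZT15. Of 27 measured immediate early and serum response genes these 2 were lower and 0 higher (median -0.01), while Btg2 (-0.39, adjusted p 0.12), Egr1 (-0.34, 0.15), Nr4a1 (0.31, 0.32) and Fos (-0.29, 0.38) did not pass.

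G0s2, which codes for an inhibitor of adipose triglyceride lipase, was lower by -0.32 ± 0.07 (adjusted p 0.030; features -0.29 and -0.36) and was 1 of 20 measured genes of triglyceride breakdown and storage that were lower. In the same list Lclat1, an acyltransferase that remodels the mitochondrial lipid cardiolipin, was higher by 0.28 ± 0.06 (adjusted p 0.032). Hrc, a calcium-binding protein of the sarcoplasmic reticulum, was lower by -0.20 ± 0.04 (adjusted p 0.033), the 1 passing gene of 22 of calcium handling and depolarising currents (median 0.01). The cytoskeletal genes Tuba8 (-0.20; features -0.33 and -0.07), an alpha-tubulin, Tppp (-0.19), which promotes tubulin polymerisation, and Tmod3 (-0.18), which caps actin filaments, were lower. So were Fxyd5 (-0.22), a regulator of the sodium pump, the translation factor gene Eif3a (-0.19), the phosphatase gene Ptpn11 (-0.18) and the deubiquitinase gene Brcc3 (-0.14). Aldh2, a mitochondrial aldehyde dehydrogenase, passed at -0.23 ± 0.05 (adjusted p 0.030), but its 2 features gave -0.52 and 0.07, so its direction rests on the choice of feature.

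Chrm2 and Kcnn2, which code for a receptor and an ion channel, were higher in the light phase. Chrm2, the M2 muscarinic receptor through which the vagus slows the heart, was higher by 0.19 ± 0.03 (adjusted p 0.018), with light values of -0.16 to 0.22 (median 0.12) and dark values of -0.24 to 0.12 (median -0.14). Kcnn2, a calcium-activated potassium channel, was higher by 0.21 ± 0.04 (adjusted p 0.020), with light values of -0.15 to 0.40 (median 0.14) and dark values of -0.18 to 0.10 (median -0.09). In both, 11 of 12 light hearts lay above the dark median. Fcgrt (0.36 ± 0.07, adjusted p 0.035), the receptor that recycles antibodies and albumin, the interferon gamma receptor gene Ifngr1 (0.17), the prostaglandin transporter gene Slco2a1 (0.24) and the lysosomal channel gene Mcoln1 (0.19) were higher. Of the cell-junction genes, Cdh2, which codes for N-cadherin of the intercalated disc, was higher by 0.15 ± 0.03 (adjusted p 0.018; features 0.16 and 0.14), beside Magi3.

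Higher mitochondrial genes besides Clpx were Ndufs1 (0.12 ± 0.02, adjusted p 0.019), a complex I subunit, Atp5mpl (0.23), an ATP synthase component, Dguok (0.20), a kinase for mitochondrial DNA precursors, and Acsm5 (0.16), an acyl-CoA synthetase. Ndufs1 was the only passing member of 55 measured genes of a list of oxidative phosphorylation (1 higher, 0 lower, median 0.03), which does not hold Atp5mpl. Scd4, a fatty acid desaturase, was the 1 passing gene of 22 of sterol and fatty acid synthesis (0.33 ± 0.07, adjusted p 0.048), with its highest mean at ZT07 (0.42) and not at ZT03 (-0.03). A pair of sensors of energy and nutrients, the AMP-activated kinase subunit gene Prkab1 (0.23) and the mTORC1-recruiting GTPase gene Rragb (0.10), were higher. So were Nabp1 (0.32), which codes for a single-strand DNA-binding protein, the DNA repair genes Xrcc5 (0.16), Shld2 (0.20) and Slf2 (0.14), the acetyltransferase gene Kat2b (0.17), the corepressor gene Rcor3 (0.25) and the repressor gene Hbp1 (0.19). No list of DNA repair or chromatin genes was counted. Errfi1, a feedback inhibitor of the EGF receptor, was higher by 0.32 ± 0.07 (adjusted p 0.032), the 1 passing gene both of 19 measured EGF receptor genes (median 0.05) and of 20 glucocorticoid-responsive genes (median 0.07). Immune genes in the higher set were Il15 (0.27), a cytokine, Cd47 (0.20), the signal against engulfment, and Cd9 (0.11), a tetraspanin whose features gave 0.04 and 0.19. Lrrc61 (0.31 ± 0.06, adjusted p 0.033) and Sar1b (0.25 ± 0.05, adjusted p 0.038), a GTPase that drives vesicle budding from the endoplasmic reticulum, were higher too. Further higher genes of known function were Rit1 (0.24), a small GTPase of the RAS family, Pggt1b (0.23), a protein prenyltransferase subunit, Ntn4 (0.19), a netrin, Dhx36 (0.19), an RNA and DNA helicase, and Cmah (0.19; adjusted p 0.0085), a sialic acid hydroxylase. Klhl38 (0.24; features 0.03 and 0.44) and Zc3h6 (0.15; features 0.25 and 0.06) had features of unequal size.

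**Figure D2:**
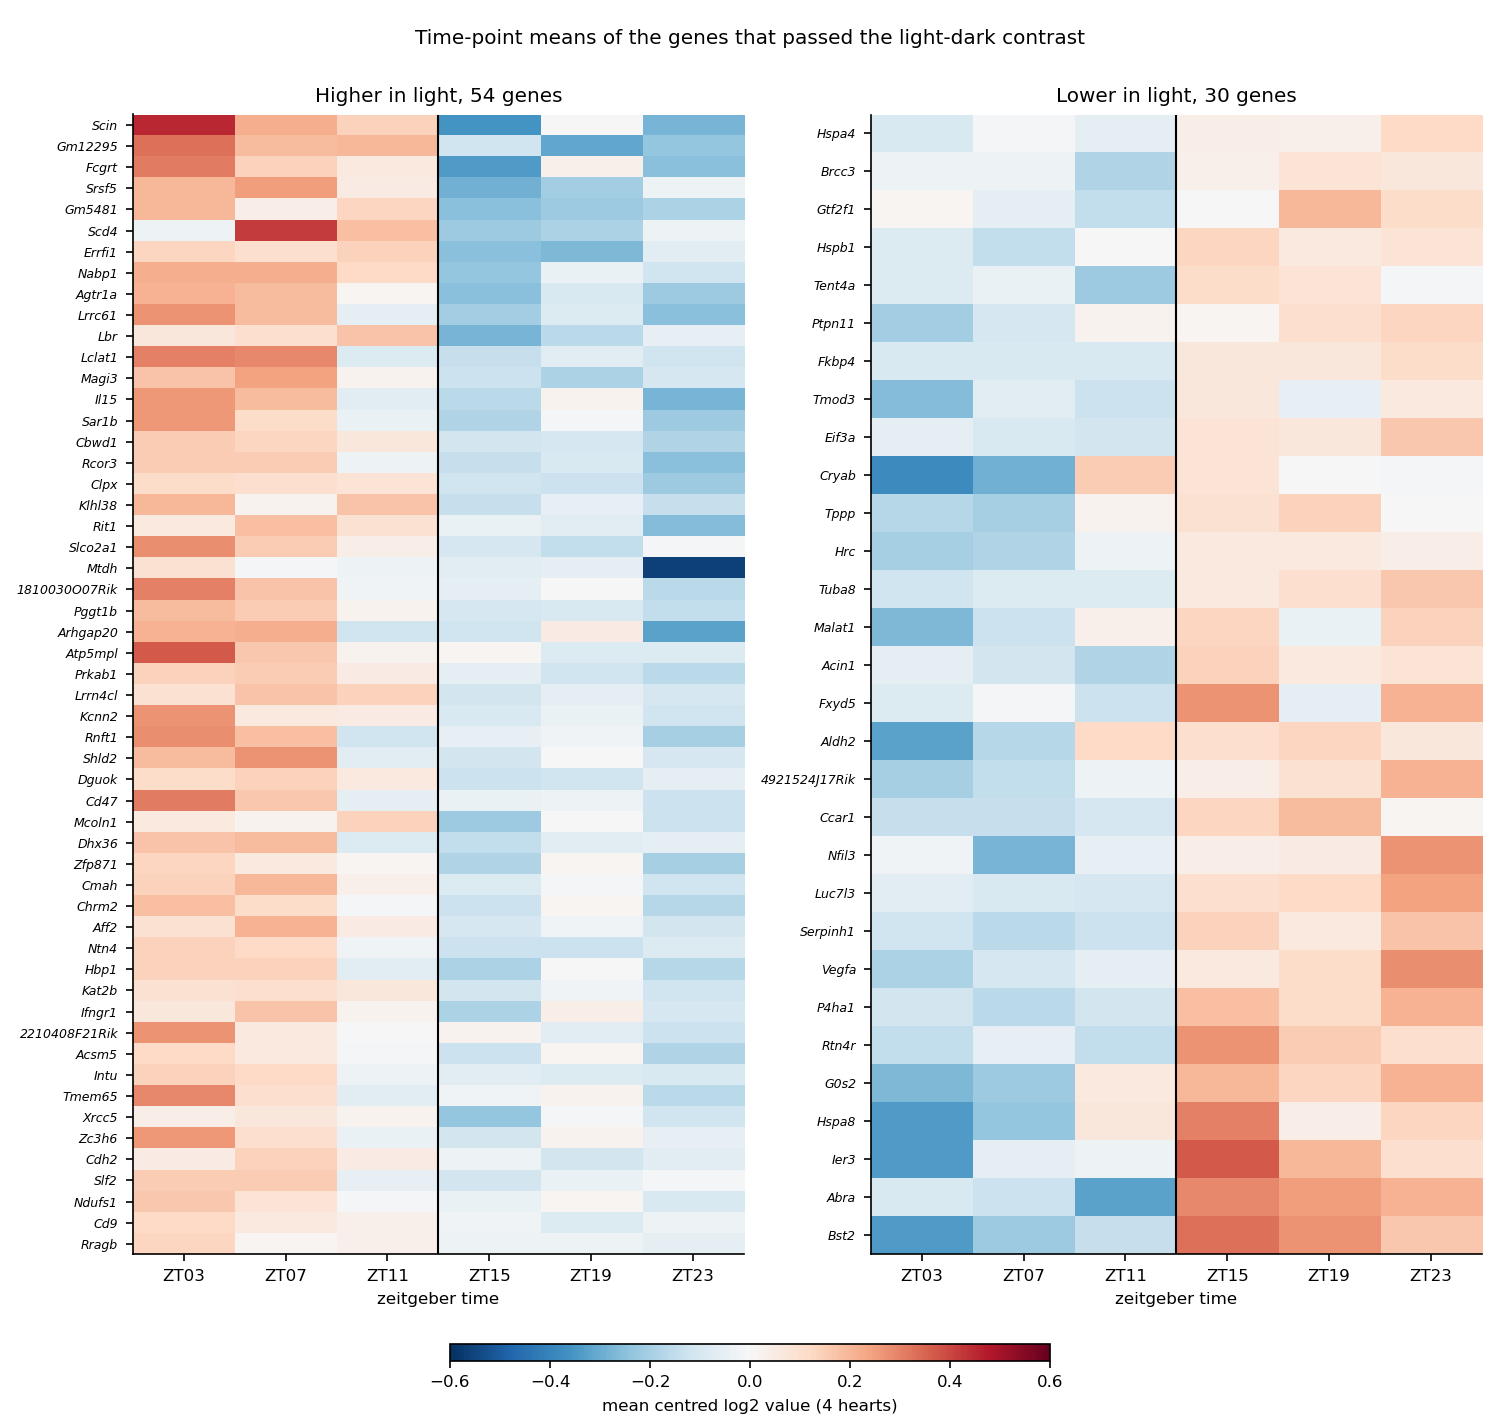
Mean centred log2 value of 4 hearts at each zeitgeber time for the 54 genes higher in light (left panel) and the 30 genes lower in light (right panel), ordered by the light minus dark difference; the black line separates light from dark time points. In the left panel the ZT11 column is paler than ZT03 and ZT07, as 43 of 54 genes had ZT11 as the light time point nearest the dark mean, and in the right panel Cryab has its highest mean at ZT11.

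By time-point means, the light-dark difference of most higher genes was largest in the pair ZT03 minus ZT15. The lower genes had pair medians close to each other. Among the 54 higher genes, the highest mean was at ZT03 in 33, at ZT07 in 18 and at ZT11 in 3, and the lowest was at ZT23 in 27, ZT15 in 20 and ZT19 in 7. ZT11, the last time point before lights off, was the light time point nearest the dark mean in 43 of 54. The median difference of these genes was 0.30 for ZT03 minus ZT15, 0.21 for ZT07 minus ZT19 and 0.16 for ZT11 minus ZT23, and ZT03 minus ZT15 was the largest of the 3 in 43 genes. Among the 30 lower genes, the lowest mean was at ZT03 in 15, ZT11 in 9 and ZT07 in 6, and the pair medians were -0.26, -0.22 and -0.23. These counts come from the hearts on which the genes were chosen and describe them without a test. In limma's F test of each gene, the 3 pairs differed from each other in 0 of the 54 higher genes. They did so in 1 of the 30 lower genes, Cryab.

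All 3 light means lay above all 3 dark means in 35 of the 54 higher genes (4.91% of all genes) and below them in 22 of the 30 lower genes (6.81% of all genes). The 3 pairs had the same sign in 77 of the 84 and in 27.8% of all genes. The genes were chosen for a large mean of these same differences, so nothing is read from these shares. The fit was also repeated with both time points of a pair left out. Without ZT03 and ZT15, 0 genes passed with limma (1380 at an unadjusted p under 0.05, smallest adjusted p 0.094). Without ZT07 and ZT19, 14 passed (12 higher, 2 lower), of which 10 were among the 84. Without ZT11 and ZT23, 244 passed (196 higher, 48 lower), of which 57 were among the 84. Each of these fits used 16 hearts and estimated the spread anew. The counts therefore depend on precision as well as on the differences, and do not measure how much each pair carried.

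**Figure D3:**
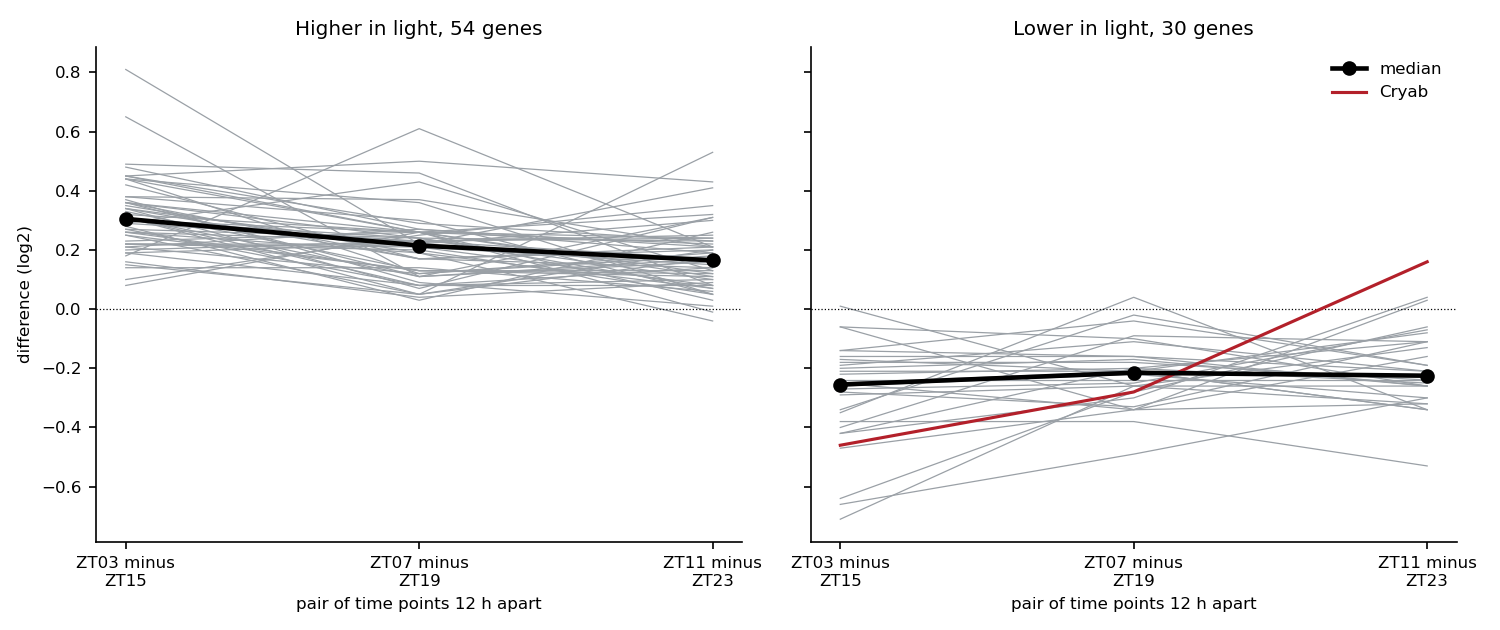
Difference between time points 12 h apart (log2) for each gene higher in light (left) and lower in light (right); each grey line is a gene, the black line with points is the median, and Cryab is red. The median falls across the higher genes from the ZT03 pair (0.30) to the ZT11 pair (0.16), stays near -0.22 to -0.26 across the lower genes, and Cryab crosses 0 to reach 0.16 in the ZT11 pair.

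Differences within a phase were tested in the same fit. Within the light phase 296 genes differed among ZT03, ZT07 and ZT11 (1.33%), and their highest light mean was at ZT03 in 202, at ZT07 in 47 and at ZT11 in 47. Of these genes, 11 were among the 84, which is 13.1% of the 84 and 3.72% of the 296. The 8 higher ones included Tmem65, Cd47, Shld2, Slf2, Rnft1 and Arhgap20, and the 3 lower ones were Cryab, Aldh2 and Malat1. Tmem65 had means of 0.29 ± 0.08, 0.10 ± 0.06 and -0.07 ± 0.06 (SD, n = 4) at ZT03, ZT07 and ZT11 (adjusted p 0.0077). The count within the light phase leaned on ZT11: it was 29 without ZT11 replicate 1, 132 without replicate 2, 101 without replicate 3 and 522 without replicate 4. It was 176 without ZT03 replicate 2 and 153 without ZT03 replicate 3.

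Within the dark phase 0 genes passed (0%) with limma, while 1613 had an unadjusted p under 0.05. The 5 with the smallest p were Hes5, Tpgs2, Mtdh and Slc46a3 (adjusted p 0.090 each) and Slc24a3 (adjusted p 0.097). Mtdh, which is 1 of the 84, averaged -0.07 ± 0.15, -0.06 ± 0.10 and -0.56 ± 0.14 at ZT15, ZT19 and ZT23 (SD, n = 4), so its light-dark difference of 0.24 came mainly with the low ZT23 hearts. The pair differences of Mtdh were 0.15, 0.05 and 0.53. That genes passed within the light phase and not within the dark phase was not tested as a difference.

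The 3 pairs differed from each other in 5 genes (0.0225%). Cryab was described above. Prrx1, a transcription factor gene of mesenchymal cells, had 0.36, 0.08 and -0.26 for the ZT03, ZT07 and ZT11 pairs, Tm4sf1, a membrane protein gene of endothelial cells, 0.44, -0.11 and -0.22, Tmem63b, a mechanosensitive channel gene, -0.29, -0.02 and 0.15, and Hif1a 0.16, 0.03 and -0.18 (adjusted p 0.028 each). In Prrx1, Tm4sf1 and Hif1a the ZT03 heart means were above ZT15 and the ZT11 means below ZT23, so their phase means hardly differed, at 0.06, 0.04 and 0.00. The count of such genes was 40 without ZT11 replicate 4 and between 1 and 10 without any other heart.

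Of 21 measured core clock genes 1 was lower in the light phase and 0 higher. Nfil3, a repressor of clock output genes, was the gene that passed, at -0.24 ± 0.05 (adjusted p 0.022), with light values of -0.42 to 0.07 (median -0.10) against dark values of -0.12 to 0.53 (median 0.11). Its low point was ZT07, at -0.28 ± 0.12 (SD, n = 4), and its high point ZT23, at 0.27 ± 0.19. Per1, a repressor gene of the clock that light and glucocorticoids also induce, did not pass at 0.40 ± 0.10 (adjusted p 0.097), with light hearts at -0.26 to 0.76 (median 0.37) and dark hearts at -0.58 to 0.41 (median -0.21). Its means were 0.01, 0.22 and 0.56 over the light time points and -0.14, 0.01 and -0.27 over the dark ones. Npas2 (0.17, adjusted p 0.15) and Cry1 (-0.20, adjusted p 0.24) did not pass either.

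The remaining core clock genes had phase differences of 0.13 for Arntl2, 0.12 for Rorb, -0.13 for Bhlhe40, -0.12 for Per3, 0.10 for Nr1d1, 0.08 for Nr1d2 and 0.06 for Timeless, and none passed. Arntl (-0.02 ± 0.09), Dbp (-0.01), Tef (-0.01), Hlf (0.01), Ciart (-0.02), Cry2 (0.01), Csnk1e (0.02), Bhlhe41 (0.00) and Rora (0.00) lay within 0.02 of 0. A phase mean of 0 does not by itself show a level profile: Arntl averaged 0.24, -0.04 and -0.34 at ZT03, ZT07 and ZT11 and -0.08, -0.24 and 0.22 at ZT15, ZT19 and ZT23, which cancel over each phase. By limma's F tests, Arntl did not pass within the light phase (adjusted p 0.11), within the dark phase (0.59) or for unequal pairs (0.18). Its ZT19 hearts were at -0.33, -0.83, -0.03 and 0.24, so that mean leaned on replicate 2.

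Of 3 lists of fuel use, each held 0 passing genes, and their medians are set against the -0.0022 over all genes. Of 19 measured targets of PPAR alpha and of fasting, 0 passed and 15 were above 0 (median 0.05). Pdk4, a brake on glucose oxidation, had light hearts at -0.13 to 0.95 (median 0.11) and dark hearts at -0.52 to 0.22 (median -0.25), a difference of 0.40 ± 0.11 (adjusted p 0.11). Acot2, a mitochondrial thioesterase, had the widest spread, -1.23 to 1.29 (median 0.18) in light hearts and -1.41 to 1.01 (median -0.39) in dark hearts (0.62 ± 0.22, adjusted p 0.30). Cpt1a (0.19, adjusted p 0.28) and Fgf21 (-0.05, 0.35) did not pass. Of 18 fatty acid oxidation genes 0 passed and 16 were above 0 (median 0.06), with Acaa2 (0.08), Echs1 (0.10), Cpt2 (0.10) and Etfa (0.06) having the smallest p. Of 25 genes of glucose transport and glycolysis 0 passed (median -0.01), among them Ldha (0.08), Gapdh (0.10, from features at 0.06, 0.05 and 0.19), Ppp1r3c (-0.20) and Slc2a1 (0.07, from 0.15 and -0.01).

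Of the next 8 lists, all but that of the sarcomere held 0 passing genes. Of 27 genes of FoxO and insulin signalling, the smallest p were those of Deptor (0.15, adjusted p 0.098; features 0.16 and 0.14), Fbxo32 (0.22, 0.10), which codes for the atrophy ubiquitin ligase atrogin-1, Phlpp1 (0.11, 0.13) and Sesn1 (0.16, 0.27), and the median was 0.04. Of 25 autophagy genes (median 0.04), they were Atg12 (0.22, adjusted p 0.081), Ulk2 (0.15), Atg10 (0.15) and Becn1 (0.11). Of 27 antioxidant genes (median 0.04), they were Prdx3 (0.15, adjusted p 0.070), Gstm2 (0.21), Sod2 (0.08) and Nqo1 (0.22). Among 24 genes of endoplasmic reticulum folding and stress, 20 lay below 0 (median -0.07), with Canx (-0.10, adjusted p 0.11), Pdia3 (-0.15, 0.13), Herpud1 (-0.23, 0.16) and Sel1l (0.13, 0.26) nearest the threshold. Of 16 potassium channel genes (median 0.06), a list that does not hold the passing Kcnn2, the smallest p were those of Kcnd2 (0.22, adjusted p 0.14), a subunit of the transient outward current, Kcnj3 (0.08), Kcna4 (0.08; features 0.00 and 0.17) and Kcna5 (0.15). The amino acid response (17 genes, median -0.01) had Cebpb (0.14), Atf4 (-0.08), Slc38a2 (-0.09) and Ddit3 (-0.09). Of a list of 3 RNA-binding genes named for cold induction 2 were measured, Cirbp (0.12, adjusted p 0.36) and Rbmx (0.07, 0.77). Rbm3 was not measured, and whether Rbmx is induced by cold is not shown here. In the sarcomere and Z-disc list 1 of 29 passed, Cryab, and the median was -0.03.

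**Figure D4:**
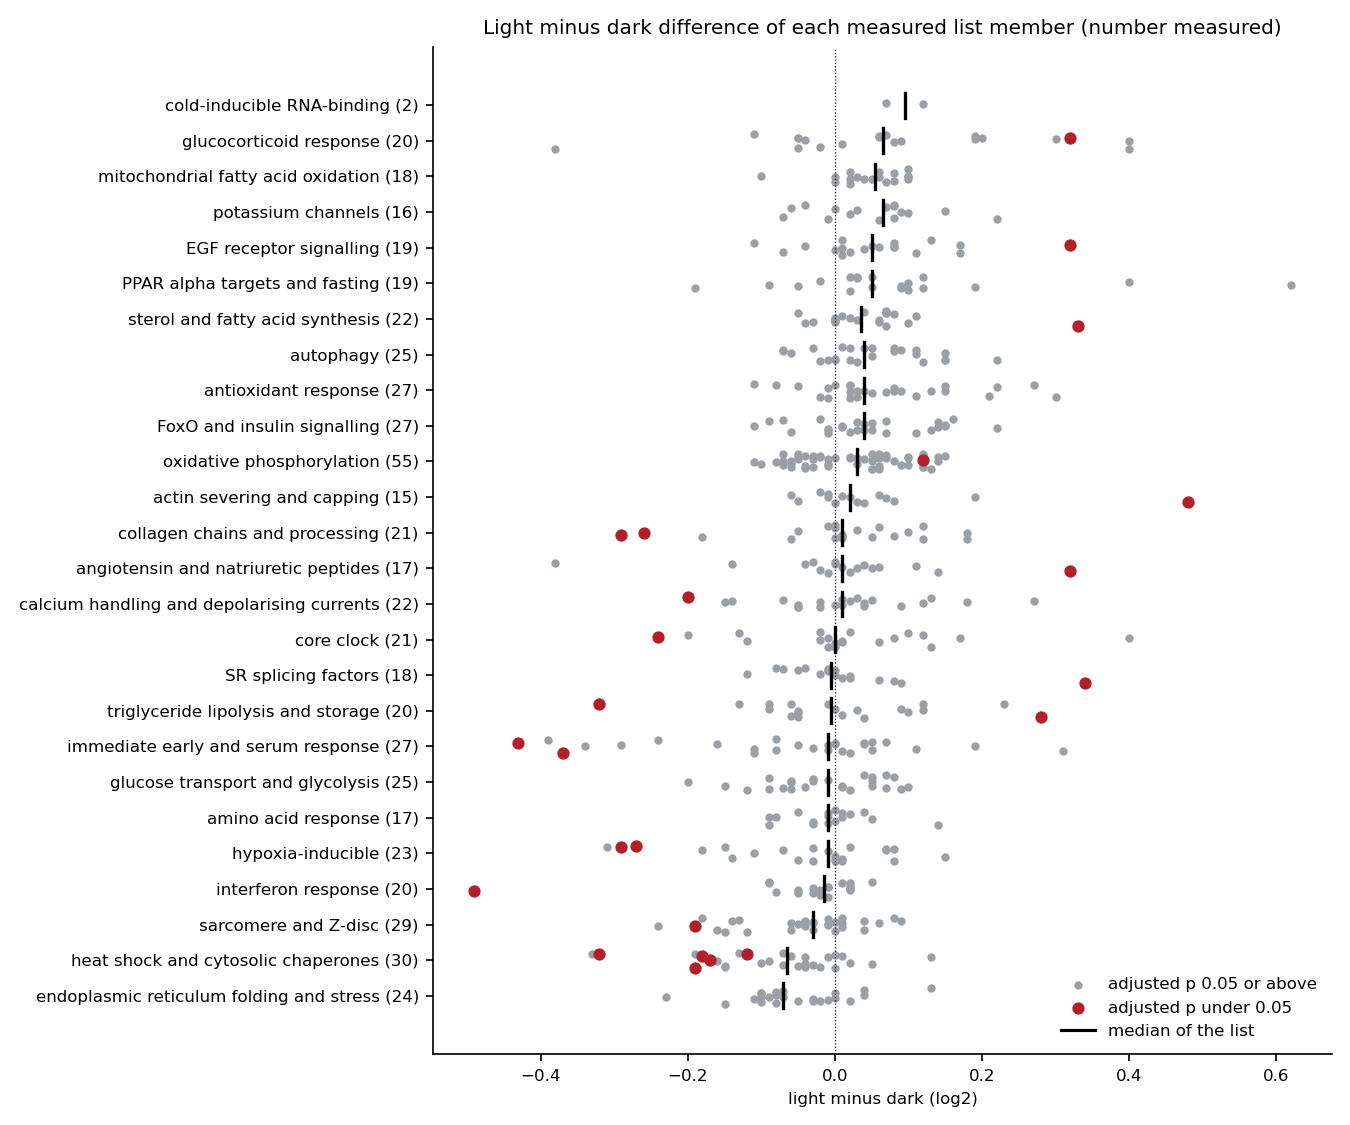
Light minus dark difference (log2) of each measured member of 26 pathway lists, ordered by list median; red points passed at an adjusted p under 0.05, grey points did not, and black bars are list medians. The heat shock list has 5 red points below 0. List medians run from -0.07 for endoplasmic reticulum folding to 0.09 for the cold-inducible list, of which 2 genes, Cirbp and Rbmx, were measured.

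In whole tissue, fewer cells of a type and less RNA per cell cannot be told apart, so markers of 16 cell types were set beside these results. In each of the 16 lists 0 markers passed, and the list means differed between phases by -0.05 (skeletal muscle) to 0.09 (atrial cardiomyocyte). The mean of 7 atrial markers lay between -0.24 and 0.45 (median 0.03) in light hearts and between -0.27 and 0.23 (median -0.03) in dark hearts, the widest of the lists within a phase. All 10 fibroblast markers were above 0, 3 of them at an unadjusted p under 0.05, and their mean was -0.09 to 0.15 (median 0.05) in light hearts against -0.16 to 0.07 (median -0.04) in dark hearts. Dcn (0.12, adjusted p 0.27) and Lum (0.12, adjusted p 0.50) were among them, while P4ha1 and Serpinh1 were lower. Endothelial markers averaged -0.04 and cardiomyocyte markers -0.03. Of 8 erythroid markers 1 was measured. The part of these small shifts in the 84 genes was not tested.

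**Figure D5:**
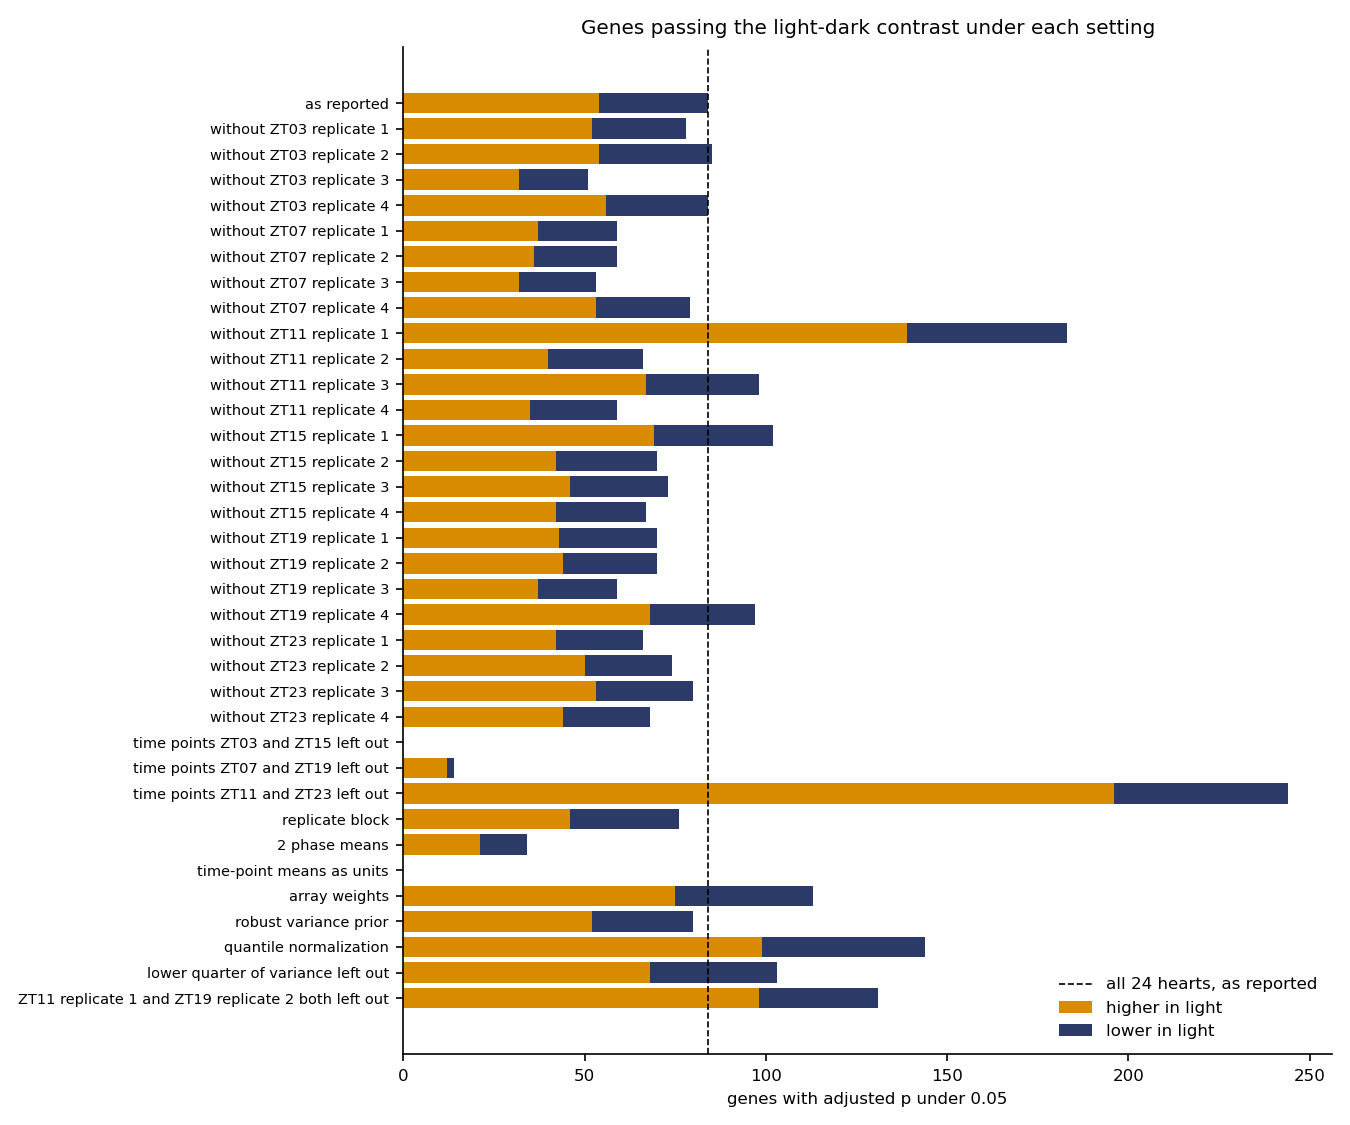
Number of genes higher (yellow) and lower (dark blue) in light at an adjusted p under 0.05 under each setting with 1 value per gene. The fits on array features are not shown, and the dashed line is the total as reported, 84. The bars for time-point means as units and for leaving out ZT03 and ZT15 are at 0, and the longest are those without ZT11 and ZT23 (244) and without ZT11 replicate 1 (183).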

How the data were processed

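Total RNA of 24 hearts was hybridised, as biotin-labelled cRNA made from 500 ng by the Affymetrix protocol per the labels' protocols, to arrays of a single colour. The values as deposited are logarithms (taken as log2) that the authors centred: the median of each of 34351 features is at 0 over the arrays (largest absolute value 5e-07), as tested on the values, which run from -1.89 to 2.11. Summarization, normalization, log base and any filter are not given in the sources used here. If the base were e, every difference would be 1.44 times larger, and adjusted p-values would not change. Signal over background is unknown, and the number of arrays limits the precision (median SD within time points 0.087).

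By the platform annotation 23521 features had 1 symbol, 1814 several and 9016 none. Those with 1 symbol were averaged per gene (22180 genes, 1082 of them from 2423 features), and 23328 matched an Entrez gene of RefSeq (GRCm38.p6), with 0 symbols differing. A filter on low values is void for centred values, so all genes were tested. limma 3.58.1 in R 4.3.3 fitted 6 time-point means with moderated contrast or F tests and Benjamini-Hochberg adjustment at 0.05. Errors are SE of this fit unless an SD is named. The code was tested on simulated data.

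The comparison, gene lists and tests were chosen with earlier results of these data known. Named genes were up to 15 of proper symbol per direction with the largest difference among passing genes, other passing genes by function, list members that passed or, in lists with 0, the 4 of smallest p, and all core clock genes. Per-heart values are given for the 6 of smallest p among those 15 in each direction and for passing heat shock genes. Hspd1, Hsp90aa1, Hspa1a, P4ha2, Egln3, Btg2, Egr1, Nr4a1, Fos, Nppb, Gm12295 and the further genes given with lowest and highest values were chosen after their values were seen. Deviations of hearts with the same replicate number correlated at -0.23 to 0.23 (median 0.00) over 60 pairs of arrays, of which 8 exceeded 0.1, so numbers were not taken to pair hearts. Alternatives left out each heart or time-point pair and changed the block, weights, variance prior, normalization and features.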

Additional observations from a re-analysis of the deposited data

Results flagged for a closer look

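Within time points, 36 genes described above were searched for a heart far from its 3 companions, by Dixon's ratio at 95%. Of 216 groups of 4 hearts, 11 held such a heart, and chance gives about 1 in 20. In the light phase, Bst2 was -0.68 in ZT03 replicate 4 (nearest other -0.25), and ZT07 replicate 1 was low in Agtr1a at 0.04 (nearest other 0.23) and in Clpx at 0.01 (0.12). ZT11 replicate 1 was low in Errfi1 at -0.13 (0.20) and in Hrc at -0.14 (0.00), and ZT11 replicate 4 was high in Nabp1 at 0.53 (0.01). In the dark phase, Il15 was 0.15 in ZT15 replicate 4 (-0.24) and Fkbp4 0.21 in ZT15 replicate 2 (0.03). Errfi1 was -0.32 in ZT23 replicate 1 (-0.01), and ZT23 replicate 3 was low in Aldh2 at -0.16 (0.14) and in Cryab at -0.12 (0.01).

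The difference between time points 12 h apart was unequal over the 3 pairs, by limma's F test, in Cryab (adjusted p 0.0099; differences -0.46, -0.28 and 0.16), Prrx1, Tm4sf1, Tmem63b and Hif1a (adjusted p 0.028 each). Features with several or no symbol were outside the gene comparison, and 8 of 10830 (0.074%) passed light minus dark, 5 higher and 3 lower, with 909 at an unadjusted p under 0.05 and differences up to 0.36 and down to -0.32.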

How the results depend on the processing

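With each heart left out in turn, light minus dark passed for 51 to 183 genes (32 to 139 higher, 19 to 44 lower), and 45 of the 84 genes passed in all 24 fits. Tmod3 passed in 4 of the 24, Ptpn11 and Scd4 in 5, Il15 and Sar1b in 6, and Cd47 and Intu in 7. Fxyd5, Mtdh and Lrrn4cl passed in 8, and Fcgrt, Cd9, Dguok, Rit1, Hspa4 and Serpinh1 in 9. The tests within the light phase gave 29 to 522 genes, within the dark phase 0 to 2, and for unequal pairs 1 to 40. Without ZT11 replicate 4, 35 genes were higher. Without ZT03 and ZT15, 0 passed (0 higher, 0 lower), without ZT07 and ZT19 14 (12 and 2), and without ZT11 and ZT23 244 (196 and 48). A fit of 2 phase means, which puts differences within a phase into the spread, gave 34 (21 and 13; 33 of the 84), and time-point means as units gave 0 (0 and 0). Quantile normalization gave 144 (99 higher, 45 lower; all 84 among them), with 2 genes within the dark phase and 8 of unequal pairs. Leaving out ZT11 replicate 1 and ZT19 replicate 2, chosen after seeing the data, gave 131 (98 higher), 61 within the light phase and 2 of unequal pairs. With the replicate block, although replicate numbers did not pair the hearts, the counts were 76 (46 higher and 30 lower; 66 of the 84), with 270 within the light phase and 8 of unequal pairs. Unequal pairs numbered 11 with array weights, 9 without the genes of lowest variance and 3 with each feature on its own. Light minus dark stayed within 1.5 times of 84 with array weights (113), a robust variance prior (80), each feature (79), all deposited features (71) and without the genes of lowest variance (103). With each feature on its own, 10 of the 84 genes did not pass even with their feature of smallest p. Cryab, Hspb1, G0s2, Malat1, Aldh2 and Cd9 were among them. In 0 of the 84 genes did the difference change sign under the alternatives run, although 1 of the 2 Aldh2 features lay at 0.07. Several alternatives could not change it: phase means, time-point means as units, the block and the robust prior leave the difference as it was. With each feature on its own, only the feature of smallest p was compared. The cause of the shifts in the counts was not tested.

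Limits are the assumed log base, the centring, which removes levels and any filter on them, the unstated upstream processing, 4 hearts per time point and 3 time points per phase, and the absence here of a wild-type comparison.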
